A study of Mus musculus with 24 samples.

Results

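Proanthocyanidins (PAC) are plant polymers built from flavan-3-ol units, and fractions of grape pomace PAC with different degrees of polymerization were given here to RAW 264.7 cells, a mouse macrophage line. The question addressed was what the fraction of the shortest polymers, termed low PAC, did to the transcriptome of macrophages activated with lipopolysaccharide (LPS), the cell wall component of Gram-negative bacteria that signals through Toll-like receptor 4. The comparison set the 3 arrays of low PAC + LPS against the 3 arrays of LPS alone, which are 6 of the 24 arrays in the series, and used all 22206 gene features of the Affymetrix mouse Clariom S array. Low PAC + LPS cells received 15 µg/mL PAC for 30 min and then 500 ng/mL LPS for 6 h, and LPS cells received the same LPS without PAC. The other groups used below were medium PAC + LPS, high PAC + LPS, low PAC without LPS and untreated control cells, with 3 arrays each. Medium PAC and high PAC without LPS, also with 3 arrays each, entered the shared estimate of the spread. Some values of high PAC without LPS are also given. All PAC fractions were given at the same mass per volume and for the same time, which for shorter polymers means more molecules. All groups came from 1 cell line, and nothing in the labels said whether the 3 arrays of a group came from separate cultures, so each p-value is set against a spread between arrays that may be technical.

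Values are the deposited log2 expression values. They ran from 0.95 to 19.26, above the 16 that a 16-bit scanner reading can reach on a plain log2 scale, so a difference of 1 is given as 1 on the deposited scale and not as a fold. A feature was taken as expressed above 4.73, here called the silent level, which is the 95th percentile of 1412 olfactory and vomeronasal receptor features. Between 52.0% and 53.3% of features lay above it in the 6 arrays, no array stood apart, and the lowest correlation of an array with a replicate was 0.991 to 0.992. Of 14 macrophage markers, 13 were above the silent level in both groups, with array means of 13.68 to 13.82 in low PAC + LPS and 13.68 to 13.78 in LPS. Among 11 neutrophil and 11 lymphocyte markers only S100a8 and Cd4 were above it, in both groups, and so were 2 of 11 fibroblast and 1 of 12 epithelial markers in low PAC + LPS and 3 of 11 and 2 of 12 in LPS. None of the 12 epithelial markers was called, but 3 (Cdh1, Cldn3 and Cldn4, each with both group means below the silent level) were higher at an unadjusted p under 0.05, where 4.21% of all features were. Over that list 8 differences were positive and 4 negative, the lowest -0.66. Its array means were 3.64 to 3.72 in low PAC + LPS and 3.41 to 3.60 in LPS, without overlap. In the other marker lists none was higher at an unadjusted p. There 2 of 11 neutrophil, 1 of 11 lymphocyte and 1 of 14 macrophage markers were lower, where 3.56% of all features were. The part of these markers in the results was not tested.

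LPS binding to Toll-like receptor 4 drives NF-kB, interferon and cytokine programs, and activated macrophages at the same time turn down part of their cholesterol export machinery. Lysosomes degrade engulfed material at a low pH that is set by a proton pump, the V-ATPase, and their genes are controlled in part by the MiT/TFE transcription factors, which bind E-boxes. Cholesterol and fatty acids taken up by macrophages are either exported by ABC transporters or stored in lipid droplets.

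Low PAC changed few genes in LPS-activated macrophages, and those that rose included Pmp22, Lhfpl2, Bhlhe41 and the lipid genes Abcg1 and Nceh1. The risers are described below in groups of known function that were put together after the calls were seen, and counts over the gene lists follow at the end. In limma's moderated test over all 24 arrays with Benjamini-Hochberg adjustment, 33 of 22206 features (0.149%) passed an adjusted p of 0.05. Of these, 27 were higher (0.122%) and 6 were lower (0.027%) in low PAC + LPS than in LPS. The 4 risers Krt15, Yes1, Mturn and Hoxd11 were below the silent level in both groups, which leaves 23 risers and 6 fallers among expressed genes. The 23 rises were between 0.61 and 2.01 with a median of 0.94, and 11 of them were at least 1. Most other features moved little: the median difference was -0.015 over the 11891 features above the silent level in either group, and 95% of these differed by less than 0.61 in either direction.

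**Figure D1:**
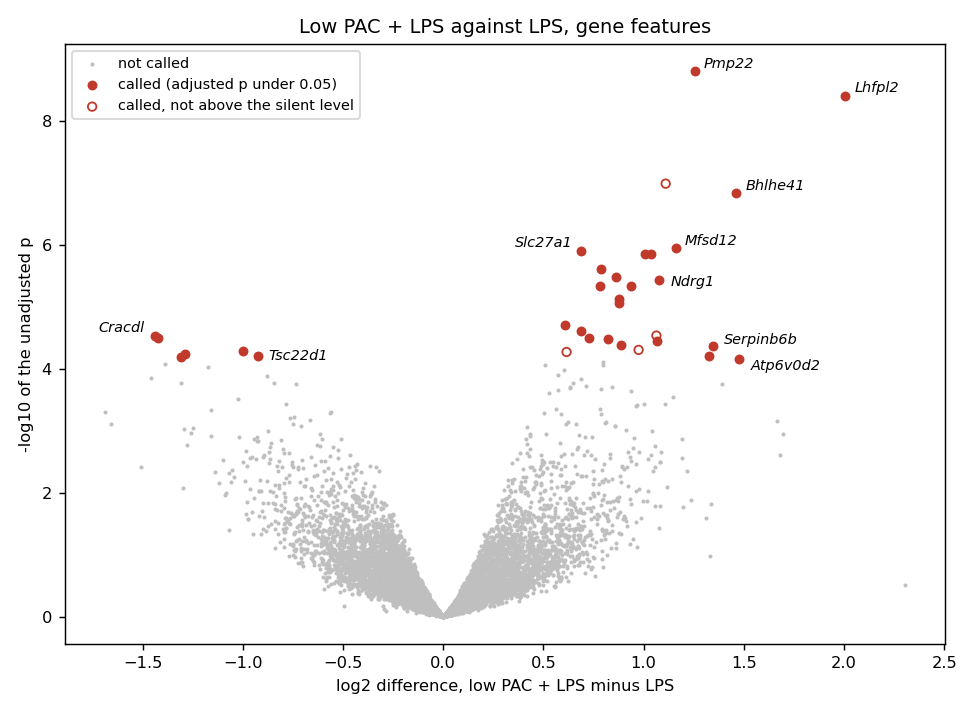
Difference between low PAC + LPS and LPS (x axis, log2 scale) against −log10 of the unadjusted p from limma (y axis) for each of the features above the silent level in either group, with called genes in red and 10 of them named; open circles are the 4 called genes below that level. The 23 expressed risers lie between 0.61 and 2.01, led by Pmp22 and Lhfpl2, and the 6 fallers between -1.44 and -0.93.

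The calls rested on the spread estimated from all 8 groups. When limma was fitted to the 6 arrays alone no gene passed (smallest adjusted p 0.40, with 1485 features at an unadjusted p under 0.05), and over the 12 arrays with LPS only Pmp22 and Lhfpl2 did. The count was 14, 17 or 18 without low PAC + LPS replicate 3, 1 or 2, and 21 without LPS replicate 3. Nceh1, Plekho1, Bhlhe41, Slc27a1, Mfsd12, Pmp22, Krt15, Lhfpl2 and Abcg1 kept the call with any 1 of the 6 arrays left out, and 6 genes lost it each time: the risers Bbs7, Serpinb6b, Mturn and Hoxd11 and the fallers Tsc22d1 and Lpin3.

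The promoters of risers are shown first for the E-box, because 7 of the 16 expressed risers with a RefSeq promoter window (43.8%) held the letters CACGTG, against 9.26% of 15691 array genes with such a window and 7.15% of all 32851 windows. The array genes include those below the silent level, unlike the risers. A gene counted when any of its windows held the letters, and genes can differ in their number of windows. These shares are therefore not matched for expression or number of windows, which holds for the second motif below too. The windows printed are the first of each gene with the letters. Each window runs from 250 bases before to 50 bases after the annotated start in GRCm38.p6, and the motif reads the same on both strands. The 7 genes were Ampd3, Bbs7, Bhlhe41, Gla, Nceh1, Plin2 and Slc27a1, and a match is a description of the letters and not of binding. A second motif, TCATGTG on either strand, stood in Gla, apart from the E-boxes, and in Hpgds, which is 12.5% of the 16 against 3.52% of array genes. No other motif was searched. For 4 of the genes the windows follow, 5′ to 3′ on the gene's strand, with the E-box in capitals: Gla at chrX:134600956-134601255 (minus strand) with E-boxes starting at -227 and -194 from the transcript start, Nceh1 at chr3:27182754-27183053 (plus strand) with one at -26, Plin2 at chr4:86670010-86670309 (minus strand) with one at -4, and Bhlhe41 at chr6:145865371-145865670 (minus strand) with one at -153.
Gla: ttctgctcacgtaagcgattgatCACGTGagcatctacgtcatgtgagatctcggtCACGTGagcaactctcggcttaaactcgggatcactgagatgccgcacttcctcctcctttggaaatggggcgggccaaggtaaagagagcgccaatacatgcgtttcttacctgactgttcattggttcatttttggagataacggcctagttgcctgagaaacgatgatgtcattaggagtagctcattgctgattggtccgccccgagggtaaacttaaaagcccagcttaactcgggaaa
Nceh1: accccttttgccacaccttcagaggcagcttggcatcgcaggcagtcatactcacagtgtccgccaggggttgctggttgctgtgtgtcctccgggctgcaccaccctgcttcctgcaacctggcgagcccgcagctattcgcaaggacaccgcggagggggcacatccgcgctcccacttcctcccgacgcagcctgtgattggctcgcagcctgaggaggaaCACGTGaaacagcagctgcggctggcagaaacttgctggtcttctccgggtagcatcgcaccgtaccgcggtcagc
Plin2: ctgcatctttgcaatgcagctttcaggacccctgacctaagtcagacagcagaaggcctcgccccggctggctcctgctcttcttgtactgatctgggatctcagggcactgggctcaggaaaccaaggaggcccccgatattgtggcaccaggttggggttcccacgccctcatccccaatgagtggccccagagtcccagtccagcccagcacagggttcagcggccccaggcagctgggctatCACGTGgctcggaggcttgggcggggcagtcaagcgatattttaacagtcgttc
Bhlhe41: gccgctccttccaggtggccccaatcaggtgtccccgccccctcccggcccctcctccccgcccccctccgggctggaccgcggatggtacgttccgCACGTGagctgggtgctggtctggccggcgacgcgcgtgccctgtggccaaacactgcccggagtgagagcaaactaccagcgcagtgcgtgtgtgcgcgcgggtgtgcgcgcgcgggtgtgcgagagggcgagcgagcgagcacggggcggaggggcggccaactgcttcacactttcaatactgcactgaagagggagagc

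A first set of risers encodes proteins of the lysosome or of endosomal membranes, although only 1 of 54 features in the list of lysosomal hydrolases and membrane proteins was called. Mfsd12, which carries cysteine into lysosomes and melanosomes, had 9.01, 8.44 and 9.17 on the low PAC + LPS arrays, against 7.54, 7.85 and 7.76 on the LPS arrays. The groups did not overlap, and the difference was 1.16 (SE 0.17, adjusted p = 0.004, limma). Gla encodes alpha-galactosidase A, a lysosomal hydrolase of glycolipids whose promoter window with 2 E-boxes is printed above. It had 11.10, 10.82 and 11.10 in low PAC + LPS and 10.35, 9.69 and 10.33 in LPS, with a difference of 0.89 (SE 0.17, adjusted p = 0.038). Atp6v0d2, the d2 subunit of the V-ATPase and a gene of fusing osteoclasts, had 7.57, 8.21 and 8.42 in low PAC + LPS and 6.25, 7.60 and 5.91 in LPS. It was the only called riser above the silent level whose groups overlapped, since LPS replicate 2 lay above low PAC + LPS replicate 1, and its difference of 1.48 (SE 0.29) passed narrowly at an adjusted p of 0.047. It was 1.98 without LPS replicate 2 (adjusted p = 0.00027) and 1.14 without LPS replicate 3 (adjusted p = 0.21). Gpr137b, a lysosomal membrane protein, was higher by 0.82 (adjusted p = 0.034), and so was Gpr137b-ps by 0.73 (adjusted p = 0.034). The pair are near-identical copies, so these features may share signal and count with certainty as 1 locus only.

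Cholesterol and lipid storage genes made up a second set, with 3 called of the 20 features in the list of LXR targets and lipid storage. Abcg1, which exports cholesterol to lipoproteins, had 9.75, 10.14 and 10.10 in low PAC + LPS, against 8.90, 9.16 and 8.81 in LPS, a difference of 1.04 (SE 0.15, adjusted p = 0.004). Nceh1 hydrolyses cholesterol esters and thereby releases cholesterol for export. Its values were 11.42, 11.33 and 11.53 in low PAC + LPS and 10.22, 10.34 and 10.70 in LPS, a difference of 1.01 (SE 0.15, adjusted p = 0.004). Plin2, the coat protein of lipid droplets, showed the smallest rise, with 14.80, 14.66 and 14.92 in low PAC + LPS and 14.17, 14.25 and 14.12 in LPS (difference 0.61, SE 0.11, adjusted p = 0.028). In each of these genes all low PAC + LPS arrays lay above all LPS arrays. Slc27a1, a fatty acid transport protein, was higher by 0.69 (SE 0.10, adjusted p = 0.004), with 15.21 to 15.28 in low PAC + LPS and 14.52 to 14.57 in LPS.

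The steepest rise and the lowest p-value were in proteins that span the membrane 4 times. Lhfpl2, a tetraspan protein of the LHFPL family, had 9.94, 9.66 and 10.23 in low PAC + LPS, against 8.12, 7.87 and 7.82 in LPS. This difference of 2.01 (SE 0.20, adjusted p = 4.4e-05) was the largest of all called genes. Pmp22, known as a protein of peripheral myelin, had 14.62, 14.47 and 14.73 in low PAC + LPS and 13.39, 13.35 and 13.32 in LPS, and its difference of 1.25 (SE 0.12) had the lowest adjusted p of all features (3.5e-05). Tm4sf19, a tetraspan protein found in osteoclasts, had 12.92, 12.97 and 12.86 in low PAC + LPS and 11.62, 12.23 and 12.10 in LPS (difference 0.94, SE 0.15, adjusted p = 0.0079). None of these 3 genes overlapped between the groups.

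Other risers had diverse roles. Bhlhe41, a transcriptional repressor that itself binds E-boxes, had 9.61, 9.77 and 9.34 in low PAC + LPS, against 7.86, 7.82 and 8.64 in LPS, and rose by 1.46 (SE 0.18, adjusted p = 0.00082). Ndrg1, a gene induced by hypoxia and iron shortage, had 13.10, 13.16 and 13.25 in low PAC + LPS and 11.84, 12.21 and 12.23 in LPS (difference 1.08, adjusted p = 0.0076). Hpgds makes prostaglandin D from prostaglandin H and had 11.55, 11.40 and 11.52 in low PAC + LPS, against 10.69, 10.35 and 10.80 in LPS (difference 0.88, adjusted p = 0.012). It was the only gene called among 21 features of effector and prostaglandin enzymes, of which 3 were higher and 4 lower at an unadjusted p under 0.05 (4.21% and 3.56% over all features, 7.77% together). Eps8, an actin regulator, differed by 0.88 (adjusted p = 0.013), with 13.32 to 13.38 in low PAC + LPS and 12.25 to 12.69 in LPS. Gnpda1, an enzyme of hexosamine breakdown, had 8.90, 8.80 and 9.05 in low PAC + LPS and 7.27, 8.07 and 8.22 in LPS (difference 1.07, adjusted p = 0.034). Serpinb6b, a serine protease inhibitor, rose by 1.35 (adjusted p = 0.038) and Bbs7, a subunit of the BBSome that sorts cargo to cilia, by 1.33 (adjusted p = 0.045). Bbs7 lay at 5.63 to 6.32 in low PAC + LPS and at 4.45 to 4.68 in LPS, where it was below the silent level. The remaining risers were Plekho1 (0.79), Ampd3 (0.78), 1700017B05Rik (0.86) and Gas2l3 (0.69), with adjusted p-values of 0.0061 to 0.032, and they are named here although the naming rule did not select them.

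Of the 6 genes that fell, only Arc belonged to one of the gene lists. Tsc22d1, a leucine zipper protein induced by TGF-beta, had 12.10, 12.25 and 11.73 in low PAC + LPS, against 12.97, 12.85 and 13.04 in LPS (difference -0.93, SE 0.18, adjusted p = 0.045). Arc is an immediate early gene, known from neurons, whose product organises the cytoskeleton. It had 7.92, 7.74 and 7.85 in low PAC + LPS and 8.74, 9.18 and 9.47 in LPS (difference -1.29, SE 0.25, adjusted p = 0.045). Car12, a membrane carbonic anhydrase, had 4.69 to 5.32 in low PAC + LPS and 5.72, 6.24 and 6.05 in LPS, a difference of -1.0 (adjusted p = 0.043). Clec2f, a C-type lectin, differed by -1.42 (adjusted p = 0.034), Cracdl by -1.44 (adjusted p = 0.034) and Lpin3, a phosphatidate phosphatase, by -1.31 (adjusted p = 0.045). In Car12, Clec2f, Cracdl and Lpin3 at least 1 low PAC + LPS array was below the silent level while every LPS array was above it.

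**Figure D2:**
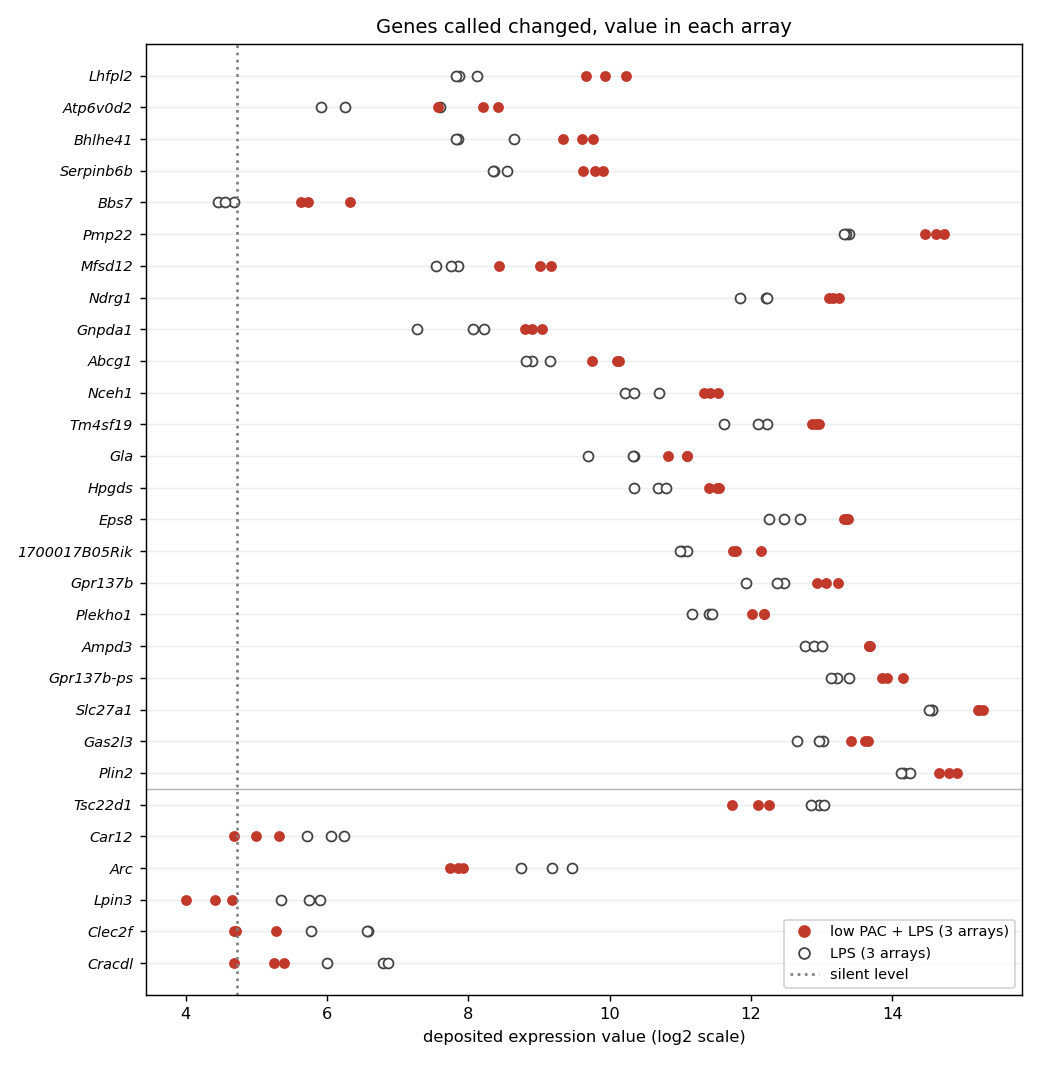
Deposited log2 value (x axis) of each expressed called gene in the 3 low PAC + LPS arrays (filled red) and the 3 LPS arrays (open), with the risers above the horizontal line in order of difference and the fallers below it; the dotted line is the silent level of 4.73. The groups are separate in 22 of 23 risers and in all 6 fallers, and only Atp6v0d2 overlaps.

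Over all features, 12.9% had groups that did not overlap, 6.56% with low PAC + LPS higher and 6.38% with it lower, so separate groups were common and the calls are a small share of them. The genes nearest the threshold were Lpin3 and Atp6v0d2 just inside, and Serpinb12 (-1.39) and Slc44a2 (0.80) just outside, both at an adjusted p of 0.053. Hmox1, which degrades haem, also had an adjusted p of 0.053, with 17.28, 17.32 and 17.38 in low PAC + LPS and 16.81, 16.84 and 16.81 in LPS.

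The risers were then set against the longer fractions. These comparisons share the low PAC + LPS arrays with the one that chose the genes, so the values are given side by side. In LPS, low, medium and high PAC + LPS, Pmp22 averaged 13.35 ± 0.03, 14.61 ± 0.13, 17.06 ± 0.14 and 16.35 ± 0.12 (SD, n = 3 each). Lhfpl2 averaged 7.94 ± 0.17, 9.94 ± 0.28, 13.60 ± 0.09 and 12.77 ± 0.12 in the same order, and Bhlhe41 8.11 ± 0.46, 9.57 ± 0.22, 13.55 ± 0.10 and 11.87 ± 0.24. The low fraction was the lowest of the 3 PAC fractions in these genes, and the medium fraction the highest. Of the 23 risers, 21 were called lower in low PAC + LPS than in medium PAC + LPS, where 6.40% of all features were called lower, with differences of -3.98 to 0.12 over the 23. Likewise 21 were called lower than in high PAC + LPS, where 3.14% of all features were called lower, with differences of -2.83 to 0.50. None was called higher than in either, where 6.09% and 3.85% of all features were, and in 20 of 23 the means ran low, high, medium.

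Abcg1, Eps8 and Bbs7 were the 3 exceptions to this order. Beside the values in LPS and low PAC + LPS given above, Abcg1 averaged 9.87 ± 0.18 in medium and 10.60 ± 0.18 in high PAC + LPS (SD, n = 3 each). Low minus medium PAC + LPS was 0.12 and did not pass (adjusted p = 0.71), while low minus high PAC + LPS was -0.60 (adjusted p = 0.018). Eps8 averaged 13.35 in low, 14.80 in medium and 14.81 in high PAC + LPS, so its longer fractions were nearly level. Bbs7 averaged 5.89 in low, 5.98 in medium and 5.39 in high PAC + LPS, and low PAC + LPS did not pass against medium (-0.09, adjusted p = 0.89) or high PAC + LPS (0.50, adjusted p = 0.31). Serpinb6b followed the order and was lower in low than in medium PAC + LPS (difference -1.13, adjusted p = 0.0043), but its difference of -0.28 from high PAC + LPS did not pass (adjusted p = 0.61).

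Of the fallers, 3 followed the same ordering of means downwards. Tsc22d1 averaged 12.96 ± 0.10 in LPS, 12.03 ± 0.27 in low, 9.11 ± 0.28 in medium and 10.33 ± 0.21 in high PAC + LPS, and the low fraction was called higher than both others (adjusted p = 4.4e-10 and 6.3e-06). Arc averaged 9.13 ± 0.36, 7.84 ± 0.09, 4.52 ± 0.48 and 7.13 ± 0.13 in the same order, and differed from medium (3.32, adjusted p = 7e-09) but did not pass against high PAC + LPS (0.71, adjusted p = 0.10). Cracdl averaged 6.55 ± 0.47, 5.11 ± 0.37, 4.17 ± 0.15 and 4.68 ± 0.37 in that order. Its difference was 0.94 from medium (adjusted p = 0.021), and one of 0.43 from high PAC + LPS did not pass (adjusted p = 0.41). Neither Cracdl mean in the longer fractions reached the silent level, which leaves the order of these means relative to each other unresolved. The Arc mean of 4.52 with the medium fraction did not reach it either. Car12, Clec2f and Lpin3 were not called against either longer fraction, with differences of -0.76 to -0.16 from medium and -0.74 to -0.01 from high PAC + LPS. Over all features, low PAC + LPS differed from medium PAC + LPS in 2774 (12.5%) and from high PAC + LPS in 1553 (6.99%).

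**Figure D3:**
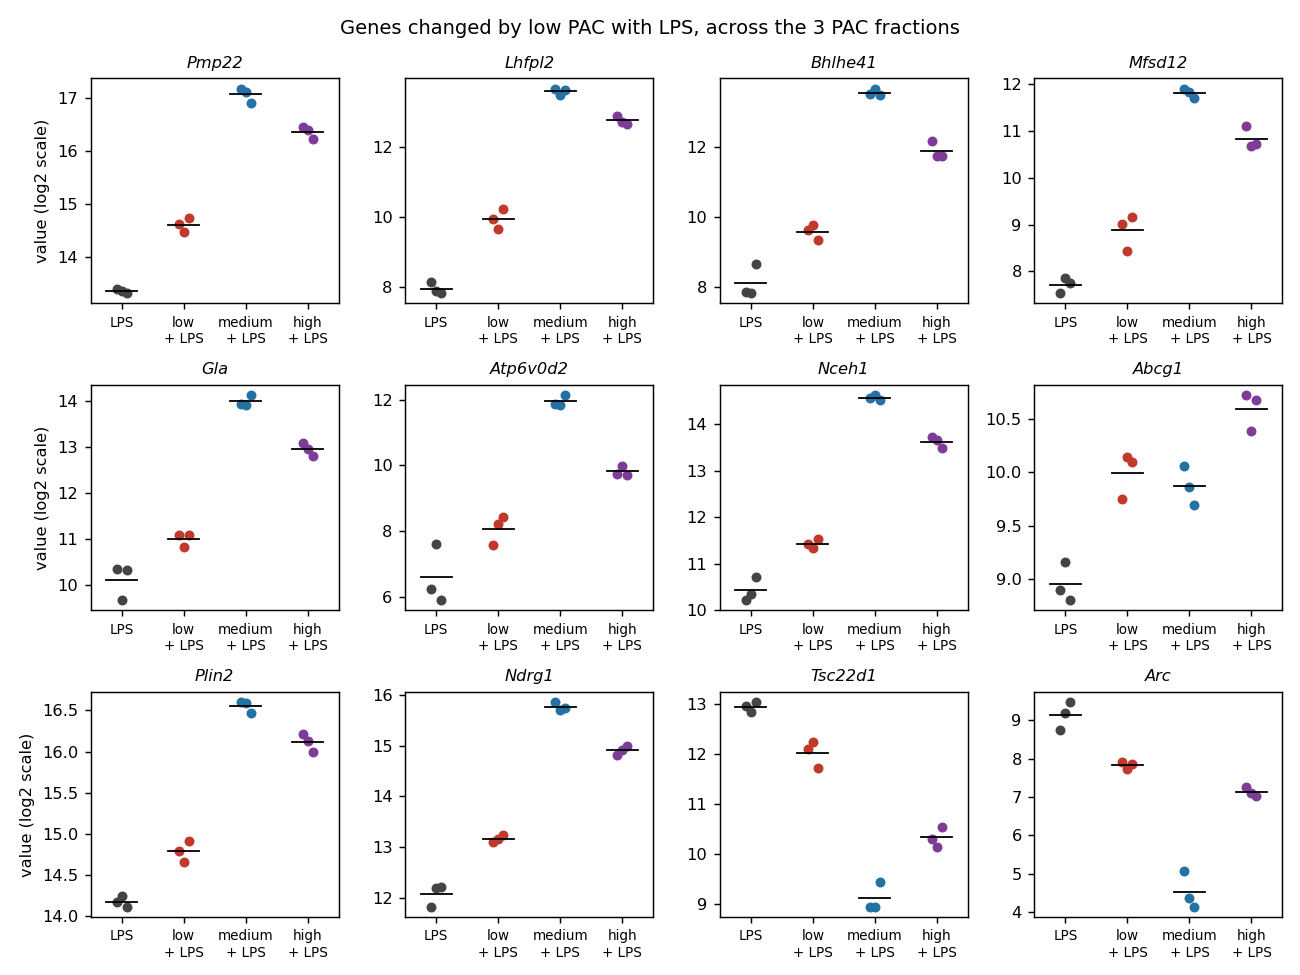
Deposited log2 values (y axes, each with its own range) of 10 risers and 2 fallers in LPS, low, medium and high PAC + LPS, with 1 point per array and a line at the group mean. In every riser shown but Abcg1 the low fraction lies between LPS and the longer fractions, and the medium fraction is highest.

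The same genes were examined in cells without LPS, which share no array with the comparison above. Low PAC was above control in all 23 risers, by 0.05 (Eps8) to 0.97 (Pmp22) with a median of 0.39, although only Pmp22 was called there (0.97, adjusted p = 0.0021, where 8 features or 0.036% were called in all and 0.0315% higher). Pmp22 had 13.97, 14.03 and 13.89 in low PAC cells and 13.10, 13.07 and 12.79 in control cells. Abcg1 (0.67, adjusted p = 0.19), Ndrg1 (0.83, adjusted p = 0.11), Nceh1 (0.75, adjusted p = 0.099) and Tm4sf19 (0.68, adjusted p = 0.15) were next in p. For the 6 fallers the resting differences were -0.16 to 0.71 and none was called.

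Whether the low PAC effect itself differed between activated and resting cells was tested as an interaction. No feature passed in limma with Benjamini-Hochberg adjustment (0.0%), with 1049 at an unadjusted p under 0.05 (4.72%). Lhfpl2 had an interaction of 1.48 (adjusted p = 0.47), Clec2f one of -2.13 (adjusted p = 0.34) and Pmp22 one of 0.28 (adjusted p = 1.00). With a mean-variance trend and a robust prior, 8 features passed: Eps8, Slc27a1, Lhfpl2 and Hmgcs1 with a positive interaction, and Il1rn, Rnh1, Lilr4b and Tnf with a negative one. Hmgcs1 was lower with low PAC in both states, so its positive interaction is a smaller fall under LPS. Tnf and Il1rn overlapped between low PAC + LPS and LPS, and their negative interactions go with higher values in resting low PAC cells. There Tnf had 13.35, 13.54 and 13.51 against 12.93, 12.91 and 12.86 in control cells. Il1rn had 13.15, 12.84 and 12.78 against 12.22, 12.02 and 12.07. A p that misses the threshold does not show that the effects were alike.

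Relative to untreated control cells, the LPS mean was below the control mean in 16 of the 23 risers and above it in 7, a comparison that shares the LPS arrays with the one that chose them. Mfsd12 averaged 8.87 in low PAC + LPS, 7.71 in LPS and 12.31 in control cells, and Nceh1 11.43, 10.42 and 13.14, so both stayed below control. Lhfpl2 came nearer, at 9.94 in low PAC + LPS, 7.94 in LPS and 10.27 in control cells. Pmp22, Ndrg1, Plin2, Tm4sf19, Ampd3, Gas2l3 and Serpinb6b were higher in LPS than in control cells and higher still in low PAC + LPS.

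**Figure D4:**
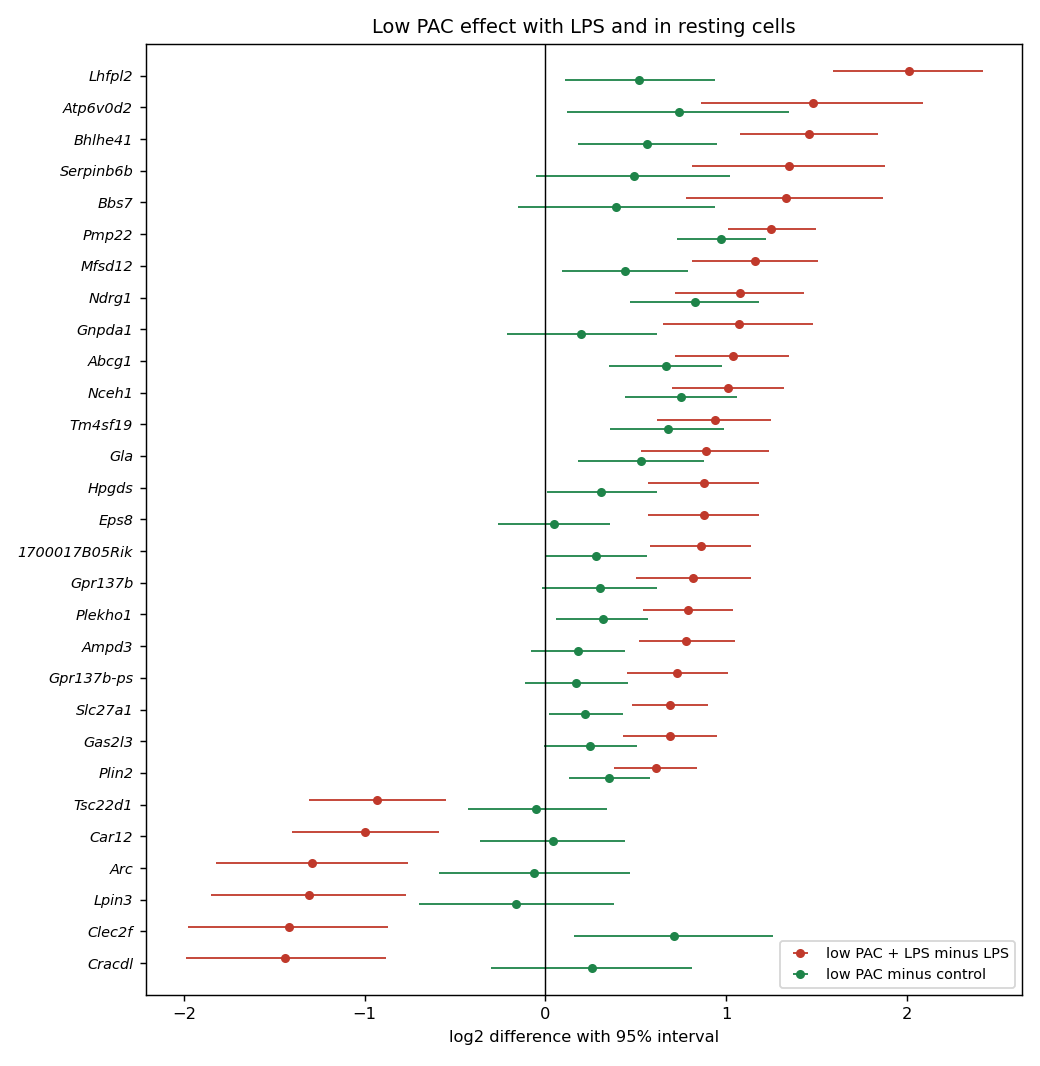
Log2 difference (x axis) with its 95% interval from limma for each expressed called gene, for low PAC + LPS minus LPS (red) and low PAC minus control (green). All 23 risers have a resting difference above 0, from 0.05 to 0.97, and the resting differences of the 6 fallers lie between -0.16 and 0.71.

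The inflammatory genes that LPS induces were not called changed by low PAC. Il6 encodes the cytokine interleukin 6 and had 15.33, 15.26 and 15.18 in low PAC + LPS, against 15.45, 15.60 and 15.82 in LPS. All 3 low PAC + LPS arrays were below all LPS arrays, but the difference of -0.37 (95% interval -1.40 to 0.66) did not pass (adjusted p = 0.91). The interval uses the spread pooled over all groups, and Il6 ran from 3.88 to 7.14 in resting cells with high PAC. In the fit of the 6 arrays alone the adjusted p was 0.74. In medium and high PAC + LPS, Il6 averaged 12.60 and 13.94, and low PAC + LPS exceeded medium PAC + LPS by 2.66 (adjusted p = 0.00064) and did not pass against high PAC + LPS (1.32, adjusted p = 0.12).

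Tnf had 17.42, 17.56 and 17.55 in low PAC + LPS and 17.48, 17.48 and 17.47 in LPS, a difference of 0.03 with an interval of -0.20 to 0.26. The 3 LPS arrays lay within the range of the low PAC + LPS arrays, and the interval is narrow. Il1b differed by -0.07 (interval -2.52 to 2.38) and Il1a by -0.29 (interval -2.77 to 2.20), where the intervals are too wide to bound a change closely. Both intervals use the spread pooled over all groups. In resting cells with high PAC, Il1b ran from 4.95 to 11.92 and Il1a from 2.29 to 9.81. Within low PAC + LPS and LPS the SDs were only 0.19 and 0.15 for Il1b, and 0.15 and 0.04 for Il1a. Il1a had 17.02, 17.04 and 17.29 in low PAC + LPS and 17.39, 17.37 and 17.45 in LPS, so its low PAC + LPS arrays all lay below the LPS arrays. Cish, a feedback inhibitor of cytokine receptor signalling, had 10.05, 10.11 and 9.83 in low PAC + LPS and 10.44, 10.63 and 10.42 in LPS, and its difference of -0.50 did not pass (adjusted p = 0.68). The longer fractions took Cish much further down, to 3.11 in medium and 6.57 in high PAC + LPS, and low PAC + LPS exceeded these by 6.89 (adjusted p = 9.7e-13) and 3.43 (adjusted p = 5.9e-08). Csf2, the growth factor GM-CSF, had 11.44, 11.64 and 10.89 in low PAC + LPS and 12.02, 11.59 and 11.56 in LPS (difference -0.40, adjusted p = 0.87), and averaged 5.72 in medium and 8.19 in high PAC + LPS. Slamf8, a receptor of the SLAM family, had 5.86, 5.36 and 6.60 in low PAC + LPS and 4.40, 5.81 and 4.47 in LPS, with a difference of 1.05 that did not pass (adjusted p = 0.34). Without LPS replicate 2, the one LPS array that overlaps, it was 1.51 with an adjusted p of 0.046. With any other single array left out it was 0.72 to 1.34 and did not pass (adjusted p of 0.19 to 0.71). LPS replicates 1 and 3 lay below the silent level of 4.73. Atf3, a stress-induced repressor, had 14.15, 13.89 and 14.03 in low PAC + LPS and 13.43, 13.66 and 13.53 in LPS (difference 0.48, adjusted p = 0.34), while in resting cells it was called higher with low PAC (0.99, adjusted p = 0.011).

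By list, none of 46 interferon response features, 36 NF-kB features, 27 interleukin and TNF features or 22 chemokine features was called. Their medians were 0.01, -0.09, -0.08 and 0.01, against -0.015 over expressed features. In the NF-kB list 27 of 36 features had a negative difference and 9 had groups that did not overlap with low PAC + LPS lower, where 6.38% of all features did. In the interleukin and TNF list 7 of 27 lay lower without overlap and 3 higher. The cytokines Tnfsf4 (-0.81) and Il23a (-1.51), 2 of the 27 (7.41%), were lower at an unadjusted p under 0.05, where 3.56% of all features were. Il23a had 5.05, 3.23 and 3.26 in low PAC + LPS and 4.61, 4.99 and 6.47 in LPS. Its groups overlapped, with arrays of both below the silent level of 4.73. Of the chemokines 2 lay higher and 2 lower without overlap, and of the interferon response features 3 lay higher and none lower. The lowest difference in the NF-kB list was -0.45, and 1 of 36 (2.78%), Traf2 at -0.32, had an unadjusted p under 0.05.

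In the lysosomal lists calls were few but small rises were frequent. At an unadjusted p under 0.05, 4.21% of all features and 4.59% of expressed features were higher, and 3.56% and 4.29% were lower. Of 54 lysosomal hydrolases and membrane proteins, 1 was called (Gla), 13 (24.1%) were higher at an unadjusted p and 2 lower (3.70%), with a median of 0.13. Members among the 13 were Npc1, which moves cholesterol out of lysosomes (0.63), Acp2, the lysosomal acid phosphatase (0.59), and the bone-resorbing protease Ctsk (0.52). Of 21 V-ATPase subunits, 1 was called (Atp6v0d2), 6 (28.6%) were higher and 1 was lower, with a median of 0.14. Among the 6, Atp6v1b1 was below the silent level in both groups, at 3.11 to 3.59 in low PAC + LPS and 2.41 to 2.86 in LPS. Atp6v1g2 was near the silent level of 4.73, at 4.53 to 5.78 in low PAC + LPS and 4.09 to 4.75 in LPS.

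Among 19 MiT/TFE factors and folliculin-Rag regulators, which tie the lysosome to mTORC1 signalling, none was called and 7 (36.8%) were higher at an unadjusted p, with a median of 0.22. Tfeb, the transcription factor that gives part of the family its name, had 8.43, 8.03 and 7.90 in low PAC + LPS and 6.34, 7.61 and 7.71 in LPS. The difference was 0.90 (adjusted p = 0.34), and LPS replicate 1 was the lowest array by far. Gpnmb, a transmembrane glycoprotein and known MITF target, was tighter, with 13.62, 13.70 and 13.65 in low PAC + LPS and 13.19, 13.22 and 13.25 in LPS (difference 0.43, adjusted p = 0.23). Flcn, the folliculin gene, differed by 0.53 (adjusted p = 0.32). The factors Mitf and Tfe3 lay far above Tfeb in level and did not rise. Mitf had 13.50, 13.81 and 13.44 in low PAC + LPS and 13.71, 13.60 and 13.86 in LPS. Tfe3 had 13.25, 13.35 and 13.32 in low PAC + LPS and 13.27, 13.48 and 13.30 in LPS. Both overlapped between the groups. The list's median was 0.10 without LPS replicate 2.

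Lipid lists differed in direction. Of 20 LXR target and lipid storage features 3 were called (Abcg1, Nceh1 and Plin2), 4 (20.0%) were higher at an unadjusted p and the median was 0.13. Of 22 cholesterol synthesis and uptake features none was called, 19 had a negative difference and 3 (13.6%) were lower at an unadjusted p, with a median of -0.21, and the median for the same list in resting cells was -0.45. Hmgcs1, which makes HMG-CoA in this pathway, had 14.09, 14.07 and 13.98 in low PAC + LPS and 14.28, 14.22 and 14.24 in LPS (difference -0.21, adjusted p = 0.75), while in resting cells it was called lower (-1.02, adjusted p = 0.0022). Acly, which supplies cytosolic acetyl-CoA, had 13.48, 13.45 and 13.19 in low PAC + LPS and 14.05, 13.88 and 13.72 in LPS (difference -0.51, adjusted p = 0.23).

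Of 23 osteoclast features, which belong to a bone-resorbing cell that RAW 264.7 cells can form, 2 were called (Atp6v0d2 and Tm4sf19), 6 (26.1%) were higher at an unadjusted p and the median was 0.13. In the list of 44 immediate early features 1 was called (Arc), 4 were higher (9.09%) and 6 lower (13.6%) at an unadjusted p. Nr4a1, an orphan nuclear receptor of that list, had 7.53, 7.56 and 7.22 in low PAC + LPS and 8.18, 8.21 and 8.53 in LPS without overlap (difference -0.87, adjusted p = 0.30). Of 35 glycolysis and hypoxia features 1 was called (Ndrg1), 4 were higher (11.4%) and 2 lower (5.71%) at an unadjusted p. Of 46 replication and mitosis features none was called, 5 were higher (10.9%) and 2 lower (4.35%). Over all features 4.21% were higher and 3.56% lower.

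A list of 22 genes that the study's own text names had 1 called member (Atp6v0d2), 4 higher (18.2%) and 1 lower (4.55%) at an unadjusted p and a median of -0.03. The study chose these genes on the same arrays, so their counts are no independent evidence. No feature was called in the remaining lists of functional groups. At an unadjusted p under 0.05, 4.21% of all features were higher and 3.56% lower. In these lists 3 of 31 NRF2 targets (9.68%) and 2 of 11 SLAM family receptors (18.2%) were higher and none lower. Of 17 fatty acid synthesis features 2 (11.8%), and of 40 features of the ATF4 program 2 (5.0%), were lower and none higher. Of 43 JAK-STAT features 2 were higher (4.65%), and of 7 colony-stimulating factor features 1 was higher and 1 lower (14.3% each). Of 24 scavenger and lectin receptors 1 was higher and 1 lower (4.17% each). Of 17 matrix protease features 1 was higher (5.88%) and 2 lower (11.8%). Autophagy (36 features), the unfolded protein response (24) and alternative activation (18) each had 1 lower member (2.78%, 4.17% and 5.56%). Heat shock proteins (15 features), aryl hydrocarbon receptor targets (10) and NADPH oxidase subunits (10) had no member past an unadjusted p in either direction.

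**Figure D5:**
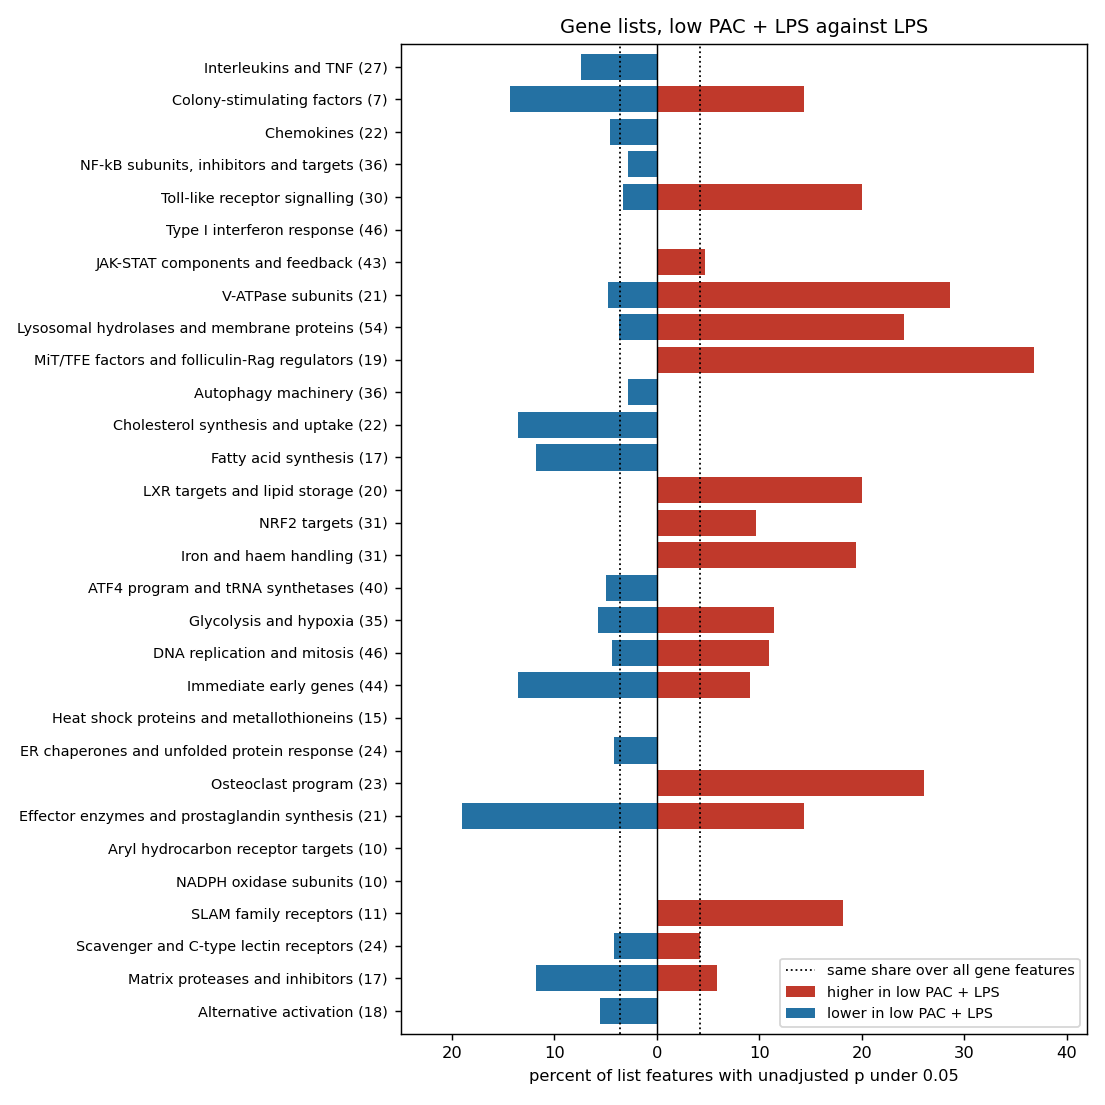
Percent of the features of each gene list (x axis; number of features in brackets) that were higher (red, right) or lower (blue, left) in low PAC + LPS than in LPS at an unadjusted p under 0.05, with dotted lines at the shares over all gene features, 4.21% and 3.56%. The lists with the highest shares of rises are the MiT/TFE (36.8%), V-ATPase (28.6%), osteoclast (26.1%) and lysosomal (24.1%) lists, which share some members. Members below the silent level are counted too.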

How the data were processed

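The authors profiled RNA of RAW 264.7 cells on 24 Affymetrix mouse Clariom S arrays (8 groups of 3), and their deposited values are log2 expression per feature. The summarisation method, not given in the sources used here, sets their scale. The array control features (6640 of 28846) were left out. Symbols came from the platform annotation, which named 19572 of 22206 gene features (88.1%), each with 1 symbol, and promoters from RefSeq (GRCm38.p6). Arrays have no counting depth, so the number of arrays limits the precision. The median standard error of the difference was 0.20 and the median half-width of its 95% interval 0.41.

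All arrays were fitted with limma 3.58.1 in R 4.3.3 with 8 group means and eBayes (16 residual degrees of freedom), and p-values were adjusted by the Benjamini-Hochberg method over all gene features. The fit was tested on simulated data. Named genes were the 15 largest rises and falls among expressed called genes, called list members, genes named in the study's text and those nearest the threshold. The members and the 31 gene lists and 5 marker lists were chosen with earlier results of these data known. Alternatives changed the arrays fitted, a silent-level filter, quantile normalization, median centring, array weights, a variance trend with robust prior, the replicate block and each replicate left out. Tables and figures used Python 3.11.15, pandas 2.3.3 and matplotlib 3.10.9.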

Additional observations from a re-analysis of the deposited data

Results flagged for a closer look

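Among the 158 named features these 4 (2.53%) were picked out because every low PAC + LPS array lay on one side of all LPS arrays while every low PAC array lay on the opposite side of all control arrays. Over all 22206 features the same was true of 128 (0.576%), and the named features were not a random sample of them. The difference between the 2 effects did not pass limma's interaction test in any of them. Clec2f had 4.68, 4.71 and 5.28 in low PAC + LPS against 6.58, 6.57 and 5.78 in LPS, but 3.41, 3.82 and 4.30 in low PAC cells against 2.84, 3.31 and 3.24 in control cells, where it was below the silent level (interaction -2.13, adjusted p = 0.34). Mturn was below the silent level in all these groups, with 3.48 to 3.73 in low PAC + LPS against 2.26 to 2.77 in LPS, and 2.55 to 2.64 in low PAC cells against 2.65 to 2.88 in control cells (interaction 1.13, adjusted p = 0.72). Irak2, a kinase of Toll-like receptor signalling, had 12.72, 12.82 and 12.88 in low PAC + LPS against 12.98, 13.05 and 13.18 in LPS, and 10.90, 10.83 and 10.84 in low PAC cells against 10.44, 10.54 and 10.51 in control cells (interaction -0.62, adjusted p = 0.72). Atg16l2, a paralog of the autophagy gene Atg16l1, had 6.79, 7.10 and 6.64 in low PAC + LPS against 7.56, 7.36 and 7.81 in LPS, and 7.71, 7.48 and 7.42 in low PAC cells against 7.05 to 7.30 in control cells (interaction -1.08, adjusted p = 0.89).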

How the results depend on the processing

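The count of genes called for low PAC + LPS against LPS (33) was 0 with only the 6 arrays compared, 2 with the 12 arrays with LPS, 55 with the silent-level filter (29 of the 33 kept), 80 with a variance trend and robust prior (29 kept), 28 with quantile normalization, 23 with median centring and 31 with array weights. It was 14 to 27 with 1 replicate left out, and 9 of the 33 genes kept the call in each of these 6 fits. With the replicate number as a block it was 18 (17 kept). The deviations of same-numbered low PAC + LPS and LPS arrays correlated at -0.061 to 0.015 over 3 pairs. For same-numbered control and low PAC arrays the values were 0.112, -0.024 and 0.13. So few pairs, each centred on a group of 3, cannot show whether same-numbered arrays belong together. Interaction calls were 0 except 8 under the variance trend and robust prior. Against medium PAC + LPS (2774) the count was 1569 with only the groups compared, and against high PAC + LPS (1553) it was 351 there and 1002 with the 12 arrays. Low PAC against control (8) gave 0 with only the groups compared, 34 with the filter, 14 with quantile normalization, 30 with array weights, 71 with the variance trend and robust prior, and 2 to 6 with 1 replicate left out. No gene called for low PAC + LPS against LPS changed direction, while 5 named genes that were not called and differed little (Ccl22, Cxcl2, Il1b, Il9 and Tgfb2) changed sign in at least 1 setting. The cause of these shifts was not tested.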

Other observations

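Among Toll-like receptors and their adaptors none of 30 features was called. At an unadjusted p under 0.05, 6 (20.0%) were higher in low PAC + LPS, where 4.21% of all features were, and 1 (Irak2, -0.26) was lower, while the list's median was 0.02 with 17 positive and 13 negative differences. Tlr13, an endosomal receptor of bacterial ribosomal RNA, had 10.57, 10.18 and 10.05 in low PAC + LPS and 9.73, 9.37 and 9.55 in LPS (difference 0.71, adjusted p = 0.082, limma). Cd180, a receptor related to TLR4, had 14.30, 14.41 and 14.52 in low PAC + LPS and 13.91, 13.61 and 13.98 in LPS (difference 0.57, adjusted p = 0.085). Tlr7, an endosomal receptor of single-stranded RNA, had 15.41, 15.53 and 15.61 in low PAC + LPS and 15.18, 14.98 and 15.12 in LPS (difference 0.42, adjusted p = 0.20). These 3 did not overlap between groups, while Tlr4 differed by -0.06.

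Iron and haem genes showed 6 of 31 features (19.4%) higher at an unadjusted p and none lower, with none called and a median of 0.07. Slc40a1, the iron exporter ferroportin, had 5.91, 6.11 and 5.71 in low PAC + LPS and 3.58, 3.95 and 5.17 in LPS (difference 1.68, adjusted p = 0.30). It was the only one of the group's members with a difference above that of Steap3, and its lower LPS arrays were under the silent level. Steap3, a ferrireductase of endosomes, had 3.55, 6.15 and 5.41 in low PAC + LPS and 2.89, 4.06 and 4.15 in LPS, where the groups overlapped (difference 1.33, adjusted p = 0.51).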
